A study of Rattus norvegicus with 2 samples.

Results

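The 10 genes described here encode the core of the transforming growth factor beta (TGF-beta) pathway: the ligands Tgfb1, Tgfb2 and Tgfb3, the latent TGF-beta binding proteins Ltbp1 and Ltbp2, the receptors Tgfbr1 and Tgfbr2, and the Smads Smad3, Smad4 and Smad7. They were chosen by name, and a probe set was taken when the array annotation gave it 1 rat gene and that gene was among them. This gave 15 probe sets for 9 of the 10 genes, out of 10411 genes named on the array. The expression of Tgfbr2 was not analysed here, and this gene enters only with its promoter. The cells were A7r5, an established smooth muscle line from embryonic rat aorta. They were infected for 72 hours with an adenovirus that carried the human GLUT1 cDNA, a facilitative glucose transporter, or with the empty adenovirus. Both groups received a multiplicity of infection of 10, with 100 particles per cell at a multiplicity of 1, and both were kept in 5.5 mM glucose. Each group was 1 pool of RNA from 3 days on 1 array, so no difference below has a replicate check and no test was made. The comparison asks how the extra glucose transporter alters expression in these cells.

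TGF-beta ligands are secreted as latent dimers held by their own propeptides, and latent TGF-beta binding proteins anchor this complex to the matrix. A released dimer binds the type II receptor Tgfbr2, which phosphorylates the type I receptor Tgfbr1. Tgfbr1 phosphorylates Smad2 and Smad3, which join Smad4 and act on target genes in the nucleus, and Smad7 is a target that feeds back on the receptor. In vascular smooth muscle the pathway is known for raising contractile and matrix genes.

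Across both arrays the member probe sets read between 188 and 2113 intensity units, against a median of 508 over all 15923 probe sets on each array. A probe set counted as measured when its mean log2 intensity reached the middle of the array, which is an intensity of 507. All 9 genes had at least 1 measured probe set, and 12 of the 15 probe sets were measured. None of the 15 was at the floor of 175 below which values were not told apart. A gene's value is the log2 ratio of its brightest probe set, GLUT1 virus over empty virus. Brightness depends on each probe set's sequence, so intensities and ranks are compared between arrays and not between genes.

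No member reached a 2-fold difference in either direction. Among all 6114 measured genes, 0.0164% did so upward and 0% downward. By their brightest probe sets, 6 members were above 0 and 3 below, with a median log2 ratio of 0.033, beside 0.0064 over all measured genes. At the smaller size of 0.25 log2 units, 1 member, Ltbp2, was higher and 1, Smad7, was lower, while 4.27% of all measured genes were higher and 3.25% lower at that size, 7.52% in either direction. With 9 genes, and with the other probe sets of Smad7 pointing the opposite way, these counts do not set the members apart. The SD of the log2 ratio over all measured genes was 0.14.

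**Figure D1:**
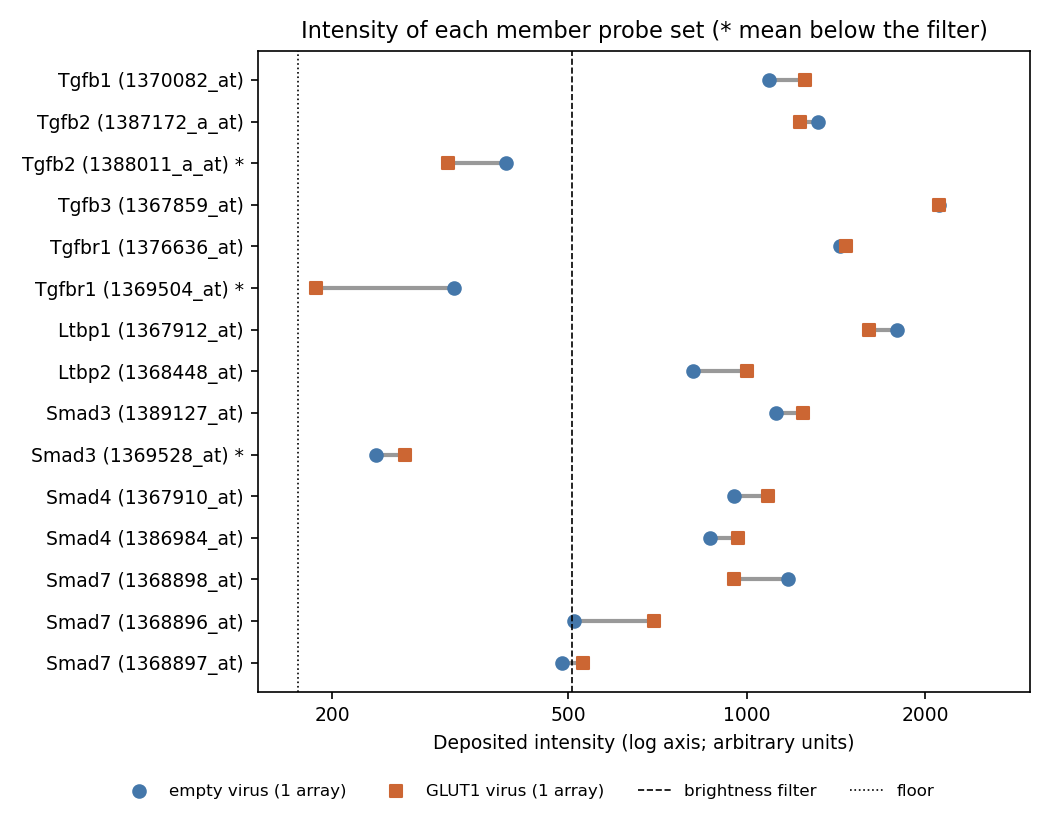
Deposited intensity (log axis, arbitrary units) of each of the 15 member probe sets on the empty virus array (circles) and the GLUT1 virus array (squares), with the brightness filter at 507 and the floor at 175 as vertical lines. Tgfb3 reads the same on both arrays at 2112 and 2113, the Smad3 and Smad4 pairs all lie to the right on the GLUT1 array, and Smad7 (1368898_at) lies to the left while the other Smad7 probe sets lie to the right.

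The scale for reading a single ratio was the local spread. It is the scaled median absolute deviation of ratios over the measured probe sets of like brightness, a window of 6.29% of them around each, so it holds array noise and real differences together. For the 12 measured member probe sets it ran from 0.12 to 0.21. Of these, 7 lay beyond 1 local spread and 2 beyond 2 local spreads, where 31.8% and 5.84% of all measured probe sets did. Both beyond 2 belonged to Smad7 and pointed in opposite directions. The 12 are not independent, since Smad4 and Smad7 enter with several probe sets each.

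**Figure D2:**
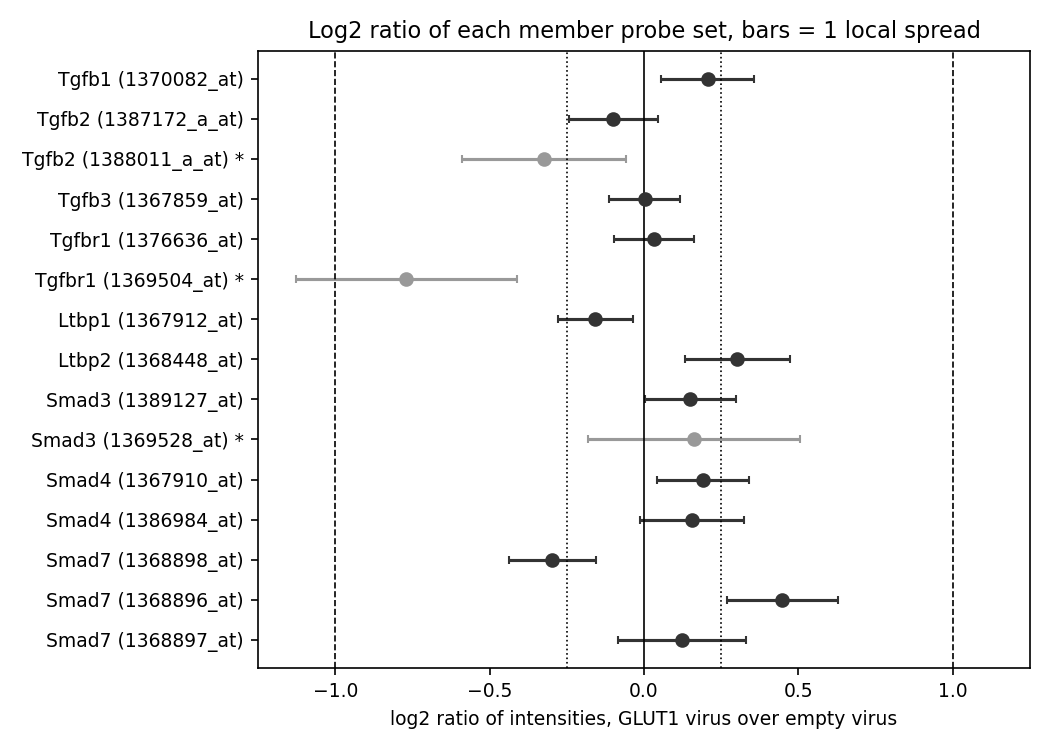
Log2 ratio, GLUT1 virus over empty virus, of the 15 member probe sets, with bars of 1 local spread (the probe sets nearest in brightness; grey points with an asterisk are below the filter, and their bars come from all probe sets). Dotted lines mark 0.25 and dashed lines 2-fold; no point reaches 2-fold, and the lowest point is the dim Tgfbr1 probe set at -0.77.

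The 3 ligands signal through the same receptors but are separate genes, and they differed in direction on these arrays. Tgfb1, the ligand best known from blood vessel walls and platelets, was read by 1370082_at at 1089 on the empty virus array and 1255 on the GLUT1 array. It had the highest ratio of the 3 ligands, at a log2 ratio of 0.21, or 1.38 times its local spread of 0.15. Its rank from the brightest moved from 5163 to 4628. Of the probe sets nearest in brightness, 15.4% had an absolute ratio at least as large, so a difference of this size was common at this intensity.

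Tgfb2, a ligand with a leading part in heart and vessel development, has probe sets from different sequence records, and both read lower on the GLUT1 array. The brighter, 1387172_a_at, gave 1319 and 1230, a log2 ratio of -0.10 and 0.695 local spreads. Its rank went from 4450 to 4712. The dimmer, 1388011_a_at, gave 392 and 313, a log2 ratio of -0.32, and lies below the brightness filter. Taken over all probe sets with no filter, its local spread was 0.27, and 22.6% of its neighbours in brightness had as large an absolute ratio. The direction was shared, but neither value stood out from probe sets of like brightness.

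Tgfb3, the third isoform, was read by 1367859_at and hardly differed between the arrays. It gave 2112 and 2113, which is a log2 ratio of 0.0020, and ranked 2918 on the empty virus array and 2914 on the GLUT1 array. Of its neighbours in brightness, 97.6% had a larger or equal absolute ratio.

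The 250 bases before the annotated start of each ligand gene are shown because the 3 isoforms are read from separate promoters. They come from RefSeq on the rat build GRCr8, 5′ to 3′ on the strand of the gene: Tgfb1 at chr1:90324062-90324311 (plus), Tgfb2 at chr13:100792686-100792935 (minus) and Tgfb3 at chr6:111456947-111457196 (minus). Capitals mark a match to any of 6 motifs.
Tgfb1: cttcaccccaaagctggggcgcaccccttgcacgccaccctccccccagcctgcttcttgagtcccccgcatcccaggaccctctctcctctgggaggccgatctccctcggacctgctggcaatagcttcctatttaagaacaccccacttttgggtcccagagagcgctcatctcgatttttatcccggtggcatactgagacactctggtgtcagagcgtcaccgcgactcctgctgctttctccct
Tgfb2: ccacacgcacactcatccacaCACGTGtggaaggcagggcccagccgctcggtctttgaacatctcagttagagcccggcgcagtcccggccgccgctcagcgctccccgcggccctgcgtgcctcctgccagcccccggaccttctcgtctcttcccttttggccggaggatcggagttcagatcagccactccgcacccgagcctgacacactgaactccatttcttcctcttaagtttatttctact
Tgfb3: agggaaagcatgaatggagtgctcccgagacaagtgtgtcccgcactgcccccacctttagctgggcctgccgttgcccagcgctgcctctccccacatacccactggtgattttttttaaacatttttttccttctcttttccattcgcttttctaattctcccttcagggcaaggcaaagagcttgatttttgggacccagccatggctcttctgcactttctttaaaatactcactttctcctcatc
The motifs, searched on both strands, were the Smad box CAGAC, the cyclic AMP response element TGACGTCA, the AP-1 site TGANTCA, the E-box CACGTG, the GC box GGGCGG and the TATA box TATAAA. The only match in these 3 windows was an E-box in Tgfb2, which starts at position -229 from the annotated start. The E-box is a part of the element through which the glucose-responsive factors ChREBP and MondoA are known to act. It was found in 1 of the 10 member promoters and in 5.59% of the 33469 promoters of the same length. The Smad box was found in 2 member promoters, Ltbp1 and Ltbp2, and in 42.9% of all promoters. The cyclic AMP response element was in the Ltbp1 window and in 1.59% of all. The GC box was in 5 member windows (Tgfbr1, Tgfbr2, Ltbp2, Smad3 and Smad7) and in 30.5% of all, the TATA box in that of Smad4 and in 12.9% of all, and the AP-1 site in 0 of the 10 and in 6.34% of all. A match says only that these letters are in the window. The GC content of the windows was 60.0% for Tgfb1, 61.6% for Tgfb2 and 48.8% for Tgfb3, beside a median of 51.2% over all promoters.

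Ltbp1 and Ltbp2 read in opposite directions. Ltbp1, which is bound covalently to the latent ligand and fixes it in the matrix, was read by 1367912_at at 1794 on the empty virus array and 1607 on the GLUT1 array. Its log2 ratio was -0.16, or 1.29 times the local spread of 0.12, and its rank moved from 3415 to 3777. Ltbp2, a fibrillin-binding family member that does not bind latent TGF-beta, was read by 1368448_at at 811 and 999. This was the highest ratio of any member by its brightest probe set, at a log2 ratio of 0.30, a 1.23-fold difference. Its rank moved from 6262 to 5524. It lay 1.77 times the local spread of 0.17 from 0, and 8.18% of the probe sets nearest in brightness had an absolute ratio at least as large. Each of these genes had a single probe set, so no other reading of the same transcript stands beside either value.

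Tgfbr1, the type I receptor that carries the signal to the Smads, gave values that depended on the probe set. The brighter, 1376636_at, read 1437 and 1469, a log2 ratio of 0.033 and 0.256 local spreads. The dimmer, 1369504_at, read 321 on the empty virus array and 188 on the GLUT1 array, and its rank moved from 9695 to 11685. That is a log2 ratio of -0.77, the largest absolute ratio among the 15 member probe sets, from a difference of -133 intensity units and a GLUT1 value close to the floor. With no filter, the local spread there was 0.36, and 5.59% of its neighbours in brightness had an absolute ratio at least as large. The probe sets come from different sequence records, and their ratios lay 0.80 log2 units apart. What the receptor transcript did therefore cannot be stated from these arrays.

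Smad3 and Smad4, which enter the nucleus together after receptor activation, read higher on the GLUT1 array in each of their 4 probe sets. Smad3, the receptor-activated Smad, was read by 1389127_at as 1122 and 1244, a log2 ratio of 0.15 and 1.01 local spreads. Its dim probe set 1369528_at, below the filter, read 237 and 265, a log2 ratio of 0.16, with 62.3% of its neighbours in brightness at least as far from 0. The pair stem from different sequence records and from very different intensities, and differed by 0.012 log2 units. This is far less than the local spread of either, 0.15 for the brighter and, with no filter, 0.34 for the dimmer. Their closeness therefore says little about agreement.

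Smad4, the common partner of the receptor-activated Smads, was read by 1367910_at as 953 and 1087, a log2 ratio of 0.19. Its second probe set, 1386984_at, gave 867 and 965, a log2 ratio of 0.16. These lay 1.29 and 0.925 local spreads from 0, and the annotation ties both to the same sequence record. They differed by 0.035 log2 units. Among the 619 genes with exactly 2 measured probe sets the median difference was 0.12, and 15.3% had a difference as small. The readings of Smad3 and Smad4 were alike in direction and size, at 1.11-fold to 1.14-fold, and each single reading lay within 1.3 local spreads of 0.

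Smad7, the inhibitory Smad that blocks the type I receptor, had 3 measured probe sets that did not share a direction. Only Smad4 and Smad7 had more than 1 measured probe set. With dim probe sets included, those of Tgfbr1 were further apart, at 0.80 log2 units against 0.75 for Smad7. The brightest, 1368898_at, read 1171 on the empty virus array and 952 on the GLUT1 array, a log2 ratio of -0.30 and 2.12 local spreads. The next, 1368896_at, read 512 and 698, a log2 ratio of 0.45 and 2.48 local spreads. The dimmest, 1368897_at, read 487 and 530, a log2 ratio of 0.12 and 0.592 local spreads, and its mean intensity of 508.3 sat at the filter. So 1 of the 3 was lower and 2 were higher on the GLUT1 array.

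The 3 Smad7 probe sets are tied to 1 sequence record in the annotation. Their ranks moved from 4876 to 5696, from 7936 to 6823 and from 8095 to 7823. The highest and lowest log2 ratios differed by 0.75. Across the 71 genes with exactly 3 measured probe sets this range had a median of 0.20 and a 95th percentile of 0.57, and it was as large as in Smad7 in 2 of the 71, Smad7 included. Few of these 71 genes had probe sets that disagreed as much, and no direction is given for the Smad7 transcript here. The 71 were not matched for brightness. The 2 dimmer Smad7 probe sets had the highest local spreads of the measured member probe sets, at 0.18 and 0.21. The place of Smad7 among the 71 is a description only. Where on the transcript each probe set lies was not analysed here.

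**Figure D3:**
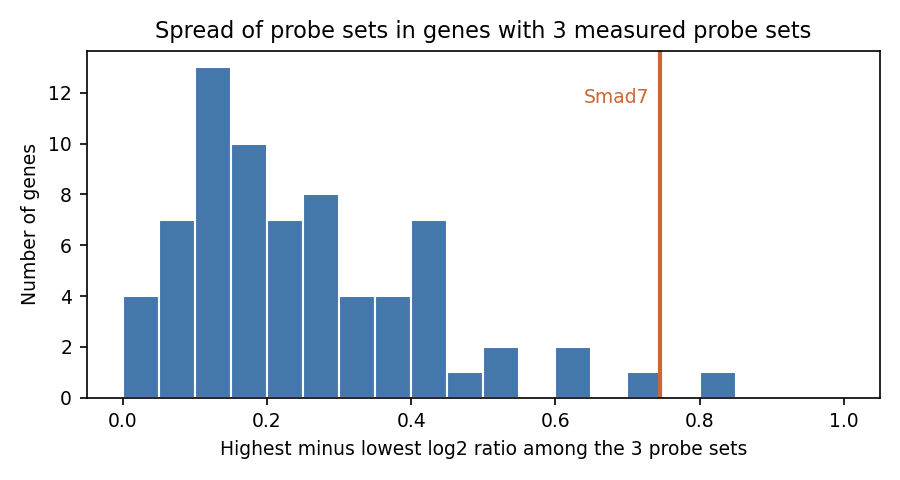
Histogram of the highest minus the lowest log2 ratio among the probe sets of each of the 71 genes with exactly 3 measured probe sets (x axis, log2 units; y axis, number of genes). Smad7, marked by the vertical line at 0.75, lies beyond the 95th percentile of 0.57, and the median is 0.20. The genes are not matched for brightness.

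The wider pathway was described with 5 lists of 118 genes in all, of which 100 had a probe set and 63 were measured. None of the 63 reached 2-fold. At 0.25 log2 units, 2 were higher and 0 lower, where 4.27% and 3.25% of all measured genes were. Their median was 0.022 log2 units, and 35 genes lay above 0 and 28 below, beside 52.2% above 0 over all measured genes. Of the 16 genes with a further measured probe set, 12 had at least 1 that pointed the other way. The same share over all genes with several measured probe sets was not computed, so this count does not set the pathway apart. For these 16 genes, the sign of the brightest probe set was often not shared within the gene.

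Genes of latency and activation read close to 0. Of the 6 measured, 3 were above and 3 below 0, and their median was 0.0030 log2 units. Mmp14, a membrane protease that can release the ligand, read 5264 and 4800, a log2 ratio of -0.13. Fibrillin-1, the microfibril protein that holds the binding proteins and is encoded by Fbn1, was at -0.051, with a second probe set at 0.15. The propeptide protease Furin was at -0.016 and the other latent binding proteins Ltbp3 and Ltbp4 at 0.022 and 0.082. The integrin subunit Itgb5 was at 0.046.

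Most other receptors of the family did not pass the brightness filter, which depends on probe sequence too. Only 3 of 10 were measured, and 7, among them the coreceptors Tgfbr3 at 461 and 466 and Eng at 353 and 319, lay below the filter. The activin receptor gene Acvr2a read 522 and 685, a log2 ratio of 0.39 and 2.30 local spreads, the highest of the wider lists. The BMP receptor gene Bmpr1a read 1508 and 1364, at -0.14, and Acvr1 670 and 649, at -0.045.

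The other Smads, with their partners and regulators, mostly passed the filter, and 21 of 23 were measured. Their median was 0.013 log2 units; 11 were above and 10 below 0, and 0 reached 0.25 in either direction. Ppm1a, a phosphatase that acts on receptor-activated Smads, was highest at 0.21, followed by Smad6, the inhibitory Smad of the BMP branch, at 0.20 and the coactivator gene Crebbp at 0.17. At the lower end, Smurf2, a ubiquitin ligase that Smad7 brings to the receptor, read 2018 and 1730, a log2 ratio of -0.22, and its second probe set gave 0.079. Tab1, a binding partner of the kinase TAK1, was at -0.19. Smad1 of the BMP branch was at -0.16, with a second probe set at 0.091.

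Ligands and antagonists of the BMP, activin and GDF branches mostly did not pass the filter, with 18 of 24 below it. Of the 6 that passed it, 3 were above and 3 below 0, around a median of 0.031 log2 units. Fstl1 at 0.15, Gdf11 at 0.15 and Fmod at 0.081 read higher on the GLUT1 array. The 2 other measured probe sets of Fstl1 differed in direction, at -0.027 and 0.15. Bmp4 read 4673 and 4399, at -0.086, Bgn was at -0.020, and the activin antagonist Fst was at -0.12 with a second probe set at 0.40.

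Known targets of the pathway lay on both sides of 0. Of 34 on the array, 27 were measured, 17 above and 10 below 0, and their median was 0.031 log2 units. The list was not split by whether the pathway raises or lowers a gene, so these counts and this median do not measure pathway activity. The highest were the AP-1 subunit gene Junb, at 473 and 587 and a log2 ratio of 0.31, Bhlhe40 at 0.19 and Cdkn1a, the cell cycle inhibitor p21, at 0.18. The lowest were the helix-loop-helix inhibitor Id2 at -0.18, the tropomyosin gene Tpm1 at -0.17 and the fibrillar collagen gene Col3a1 at -0.14. Id2 had a second probe set at 0.19, and the 3 other measured probe sets of Tpm1 lay between 0.049 and 0.25.

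**Figure D4:**
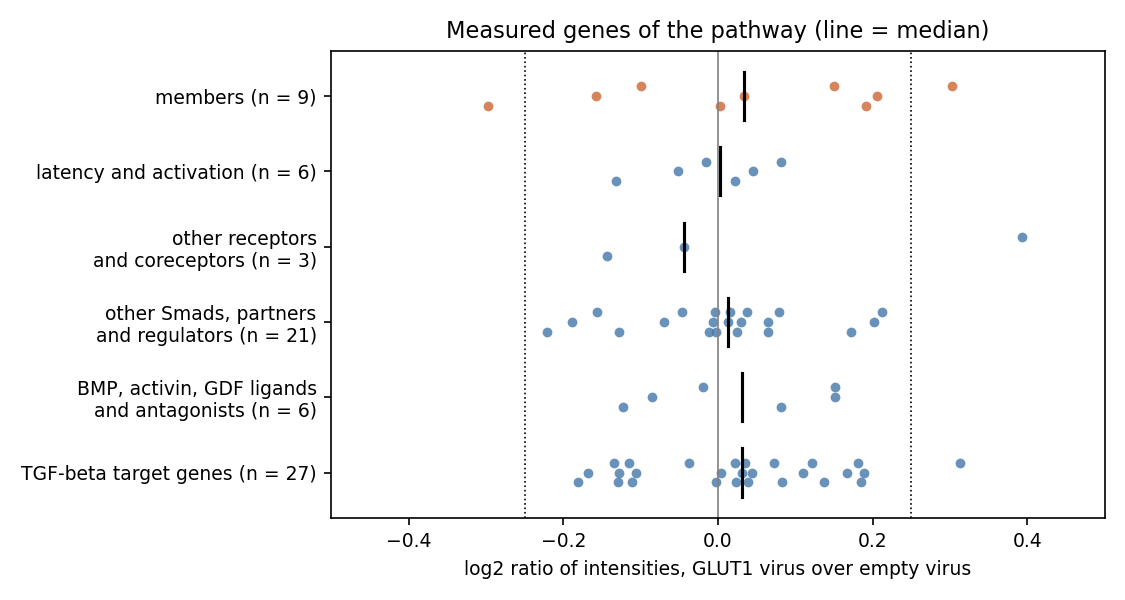
Log2 ratio, GLUT1 virus over empty virus, of each measured gene (points, by the brightest probe set) for the 9 members and the 5 lists of the wider pathway, with the median of each list as a vertical bar and dotted lines at 0.25. The medians lie between -0.045 and 0.033, and Acvr2a at 0.39 is the point farthest to the right.

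Slc2a1, which encodes rat GLUT1, read 2902 and 3121, a log2 ratio of 0.11; binding of the human vector cDNA to this rat probe set was not tested, so it does not check the labels. The sample titles name the control and the GLUT1 array, while the description of both samples names GLUT1 over-expression, and every direction here rests on the titles. Of 12 smooth muscle markers 10 were measured, with intensities from 729 to 16687, and Myh11 and Lmod1 lay below the filter. Of those measured, Actg2 at -0.21 (2.60 local spreads), Cald1 at -0.13 and Myl9 at -0.095 had the lowest log2 ratios, and Smtn at 0.19, Cnn1 at 0.083 and Tagln at 0.044 the highest. Summed over each list, smooth muscle markers read 69936 and 68732, endothelial markers 1080 and 881, leukocyte markers 3484 and 3206, epithelial markers 6439 and 6892, and skeletal muscle markers 7783 and 6902 on the empty virus and GLUT1 arrays. A sum can rest on 1 bright probe set, as with Krt8 at 6193 and 6500 among the epithelial markers, and is compared between arrays only. Negative values entered the sums as deposited, such as the epithelial gene Cdh1 at -16 on the GLUT1 array. The leukocyte genes C1qb and Cd14 were measured, at log2 ratios of -0.41 and 0.18, while Ptprc, which marks all leukocytes, read 62 and 77. The endothelial gene Pecam1 read 26 and 36, and Esam, at -0.28, was the 1 measured of 6. The skeletal muscle gene Myh1 read 4585 and 3662, a log2 ratio of -0.32 and 3.61 local spreads, with its 4 other measured probe sets between -0.093 and 0.25. Acta1 was at -0.061, Myod1 read 58 and 41, and of 5 epithelial genes only Krt8 was measured, at 0.071. The part of these differences in the member values was not tested. The cells were an established line, and whether a marker's signal came from its own transcript was not tested. In a pool, fewer cells that express a gene and less of its RNA per cell cannot be told apart.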

How the data were processed

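Biotin-labelled cRNA from 5 µg of total RNA was hybridised to 1 array per pool, per the labels. The deposited table gives linear intensities for 15923 probe sets, all whole numbers. Both columns had the same median and quartiles, with a median difference of 1 unit between their sorted values. Values at or below 0 made up 3.01% of the empty virus array and 3.04% of the GLUT1 array. How the columns came to be this alike is not known: the summary, background and between-array methods were not given in the sources used here. No detection calls were used. Groups were taken from the sample titles; the description of both samples names GLUT1 over-expression.

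The 57 control probe sets of the manufacturer named no gene. The annotation gave 12783 probe sets 1 gene each, and 12748 had a gene ID in the RefSeq table of GRCr8, whose symbol was then used. The GLUT1 array was scaled to a median log2 ratio of 0 over brighter probe sets, a shift of -0.0013. Values at or below the 25th percentile (175) were set to it and log2 was taken. A probe set was measured at a mean at or above the 50th percentile. A gene was represented by its brightest probe set.

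With 1 array per group no p-value was computed, and precision is limited by the number of arrays. The members and lists were chosen with earlier results of these data known. All member probe sets are named. Of each wider list, the 3 highest and 3 lowest measured genes are named (all where fewer than 6); receptors and markers below the filter were named after their values were seen. The steps were tested on simulated data, with changes of 2-fold or more put only into the brighter measured probe sets. Smaller ratios, such as those of the members, and dimmer probe sets were not covered by that test. Alternatives were other floors, filters and scalings, averaged or other probe sets and a threshold of 1.5-fold. Python 3.11.15, numpy 2.4.6, pandas 2.3.3 and matplotlib 3.10.9 were used.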

Additional observations from a re-analysis of the deposited data

How the results depend on the processing

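No paired analysis was possible because there was a single array for either condition. The count of members at 2-fold was 0 under the other floors, filters and scalings, with averaged probe sets, and at 1.5-fold with the brightest probe sets; it was not recounted with other probe sets, of which that of Tgfbr1 (-0.77) passes 1.5-fold. The count of 2 members at 0.25 became 0 when the brightness filter was set at the 75th percentile, where fewer genes are measured; it stayed at 2 with averaged probe sets, but as Ltbp2 and Tgfbr1 in place of Ltbp2 and Smad7. With all probe sets of a gene averaged, Smad7 turned from -0.30 to 0.09 and Tgfbr1 went to -0.37. With another probe set in place of the brightest, Smad7 gave 0.45 or 0.12, Tgfbr1 -0.77 and Tgfb2 -0.32. The median of the measured members lay between -0.078 and 0.091, and that of the wider pathway between 0 and 0.022. Both columns already had the same quartiles, and the brightest probe set of each member lay well above the floors tried. Other scalings and floors could therefore move these values little and say little about stability. The dimmer probe sets were not recomputed at another floor. The floor at the 40th percentile lay above both readings of the dim Tgfbr1 probe set, at percentiles 39.1 (empty virus) and 26.5 (GLUT1). Of 91 values recomputed, 84 were within the limits used (the local spread for a gene, the SD of all measured genes for a median and 1.5 times for a count), and 7 beyond them. A change of filter leaves the ratio of a gene as it was, and the floors left those of the brightest member probe sets unchanged. Many of the 84 were thus fixed in advance and do not measure stability. A sign change occurred in 6 of the ratios and medians: 3 of Smad7, 2 of Tgfbr1 and the member median of -0.078 with the filter at the 75th percentile. What single arrays of pooled RNA cannot show is how far either group varies.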
